A study of Homo sapiens with 2 samples.

Results

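Messenger RNA of 10 endoderm marker genes was measured in HuES53 and HuES64, embryonic stem cell lines of human origin that had not been differentiated. The genes were CXCR4, HHEX, SOX17, GATA4, GATA6, PRDM1, AFP, APOA1, APOA2 and TTR. They were taken by symbol from a table of 25436 gene symbols, and each was found in a single row. Both lines are diploid, were used below passage 20, and derive from embryos of in vitro fertilization. They served as controls in a study of haploid human embryonic stem cells, and no haploid or differentiated sample was analysed here. Each line is represented by 1 polyadenylated RNA library, so no replicate error can be had and no test was run. Each difference describes these 2 libraries rather than the lines.

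Endoderm is the germ layer that forms the lining of the gut and the liver, pancreas and lung. In the embryo and in culture, definitive endoderm arises from pluripotent cells under high Nodal or Activin signalling and switches on SOX17, GATA factors, FOXA2 and the receptor CXCR4. Primitive endoderm is a separate, earlier lineage that forms the yolk sac and shares many of these factors. AFP, the apolipoproteins and TTR are proteins secreted by yolk sac and fetal liver. Levels are given in FPKM, fragments scaled by the length of the transcript and by the total mapped. As a unit per length it lets levels of different genes be compared roughly, with no correction for GC content. Differences are on the log2(FPKM + 1) scale, with HuES64 subtracted from HuES53. They were taken for 13790 genes whose mean over both libraries was 1 FPKM or more, which are called the tested genes here although no significance test was possible, and 2-fold or more is used as the mark of a large one. The added 1 FPKM makes the difference of a low gene smaller than its plain ratio.

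The libraries carried the marker profile of pluripotent cells. The 12 listed pluripotency genes ranged from 42.1 to 1053 FPKM in HuES53 and from 24.9 to 1381 FPKM in HuES64, led by POU5F1. The difference between the libraries followed transcript GC content across genes, with a median of 0.30 where GC was lowest and -0.31 where it was highest, among 10 equal groups of genes. The median difference of the pluripotency genes was 0.39 with the deposited values. It was 0.16 once the trend with GC content and transcript length was removed. With TPM scaling, which divides each library by its FPKM sum, it was 0.64. That scaling also moved the median of all tested genes, to 0.25 from 0.03. The low values of the table moved in steps that gave HuES53 an estimated 1.22 times the depth of HuES64. By these steps 1 FPKM over 1 kb was worth about 18.45 fragments in HuES53, against 15.18 in HuES64.

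All 10 endoderm markers were present at 1 FPKM or more in both lines, where 54.2% of all symbols reached that level in HuES53 and 53.3% in HuES64. Their levels spanned a wide range, from 1.05 FPKM for PRDM1 to 264 FPKM for APOA2 in HuES53, and from 1.09 to 214 FPKM for the same genes in HuES64. There were 3 large differences among them, as AFP, CXCR4 and HHEX were each at least 2-fold higher in HuES53. That is 3 of 10 markers, where 2.15% of all tested genes were at least 2-fold higher in HuES53. None of the 10 was 2-fold higher in HuES64 or more, while 1.70% of all tested genes were. In direction alone the markers were mixed, with 6 of 10 higher in HuES53 against 52.5% of all tested genes. The median difference of the 10 was 0.41, and that of all tested genes was 0.03. With a list this short, these counts describe the members and no test was made. The members were also chosen with earlier results of these data known, so the shares cannot serve as one.

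**Figure D1:**
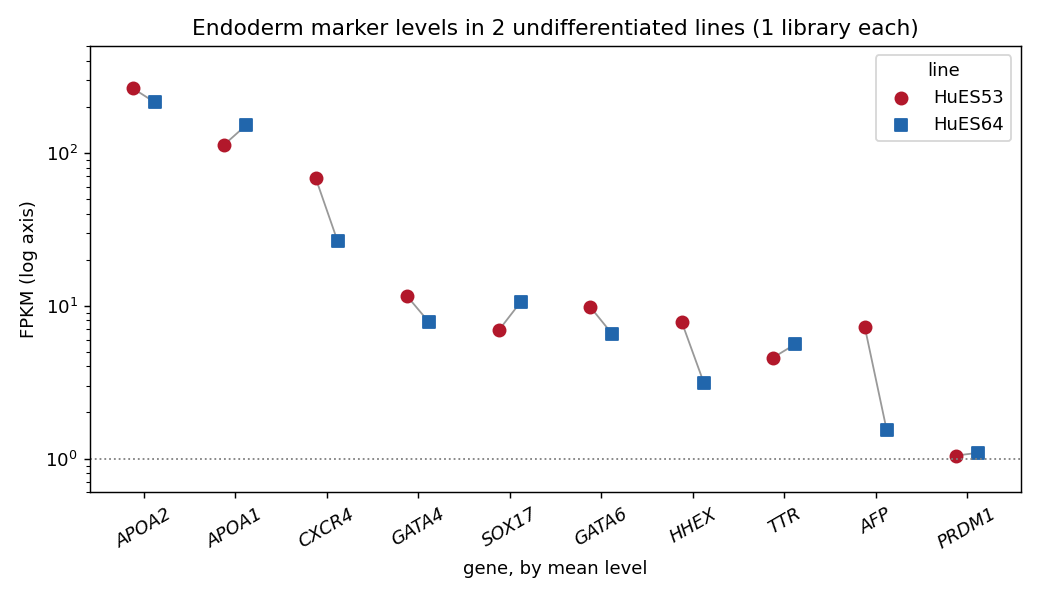
Level of each of the 10 endoderm markers in FPKM on a log axis, with genes in order of mean level, 1 point per library (circles HuES53, squares HuES64) and a dotted line at 1 FPKM. APOA2, APOA1 and CXCR4 lie above 20 FPKM in both lines, PRDM1 lies at the dotted line, and the longest connecting lines belong to AFP, CXCR4 and HHEX.

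The surface receptor CXCR4, which binds the chemokine CXCL12 and is widely used to sort definitive endoderm, was the third most abundant marker in each line. It stood at 68.1 FPKM in HuES53 and 26.3 FPKM in HuES64. HuES53 was thus the high library, by a difference of 1.34, or 2.59-fold as a plain ratio. Of all tested genes, 0.986% differed by as much or more in that direction. CXCR4 ranked 1489th among all symbols in HuES53 and 3722nd in HuES64. The values rested on about 1997 fragments in HuES53 and 635 in HuES64, with counting errors of 2.24% in HuES53 and 3.97% in HuES64, small beside the difference. Its ligand gene CXCL12, chosen after its values were seen, stood at 22.0 FPKM in HuES53 and 17.1 FPKM in HuES64, a smaller difference of 0.35. The other CXCL12 receptor, ACKR3 (listed under its older symbol CXCR7), was likewise named after its values were seen. It stood at 16.3 FPKM in HuES53 and 8.19 FPKM in HuES64, a difference of 0.91. CXCR4 thus exceeded its ligand gene in each line and ACKR3 did not, with 3.09 CXCR4 per CXCL12 in HuES53 and 1.54 in HuES64 on the FPKM scale.

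**Figure D2:**
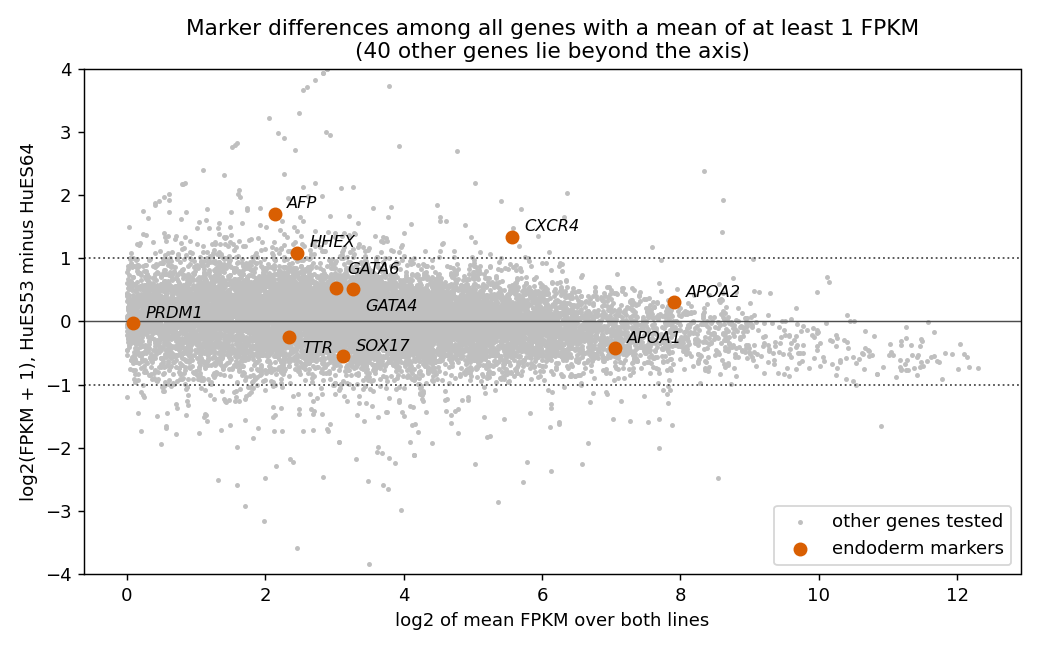
Difference of log2(FPKM + 1), HuES53 minus HuES64, against the log2 of mean FPKM for all tested genes (grey) and the 10 markers (orange), with dotted lines at 2-fold, where 40 other genes lie beyond the vertical axis. AFP, CXCR4 and HHEX lie above the upper line, and the other 7 markers lie between the lines.

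Among the transcription factors, HHEX alone differed by 2-fold or more. HHEX is a homeobox repressor of anterior endoderm and the early liver bud. It had 7.81 FPKM in HuES53 and 3.14 FPKM in HuES64, a difference of 1.09, close to the 2-fold mark. About 203 fragments in HuES53 and 67 in HuES64 lay behind these values, which gives a counting error of 12.2% for the smaller. CXCR4 and HHEX kept nearly the same proportion, with 8.72 CXCR4 per HHEX in HuES53 and 8.37 in HuES64.

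The zinc finger factors GATA4 and GATA6 act in primitive endoderm, definitive endoderm and heart, and bind the same DNA motif. GATA4 stood at 11.5 FPKM in HuES53 and 7.77 FPKM in HuES64, a difference of 0.51. GATA6 stood at 9.81 FPKM in HuES53 and 6.52 FPKM in HuES64, a difference of 0.52. Both were higher in HuES53 and below the 2-fold mark, and their proportion hardly differed, at 1.17 GATA4 per GATA6 in HuES53 and 1.19 in HuES64. A difference of at least 0.51 in this direction was found for 12.5% of all tested genes. Both transcripts are rich in GC (62.5% for GATA4 and 61.5% for GATA6). All tested genes in the same GC groups had median differences of -0.31 (GATA4) and -0.22 (GATA6), in the opposite direction. For the markers with large differences, the GC group medians ran in the same direction, at 0.27 (AFP), 0.19 (CXCR4) and 0.09 (HHEX). In those groups 2.60% (AFP), 3.36% (CXCR4) and 2.18% (HHEX) of genes were at least 2-fold higher in HuES53.

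SOX17, an SRY-related factor that marks definitive endoderm and also acts in primitive endoderm and germ cells, ran the other way. It stood at 6.89 FPKM in HuES53 and 10.6 FPKM in HuES64, a difference of -0.55. In HuES64 it was the highest of the 5 transcription factors and the fourth marker overall. In HuES53 it ranked eighth of the 10, below GATA4, GATA6 and HHEX. As a proportion, SOX17 per GATA6 was 0.703 in HuES53 and 1.62 in HuES64. The estimated 273 fragments in HuES53 and 344 in HuES64 gave counting errors of 6.06% in HuES53 and 5.39% in HuES64.

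PRDM1, a zinc finger repressor that acts in endoderm, germ cells and plasma cells, was the lowest marker. It stood at 1.05 FPKM in HuES53 and 1.09 FPKM in HuES64, a difference of -0.03. With about 56 fragments in HuES53 and 48 in HuES64, counting error alone was 13.4% in HuES53 and 14.4% in HuES64, wider than the gap between the lines. Its direction also turned with TPM scaling, to 0.12.

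The secreted proteins covered the top and the lower part of the range. APOA1 and APOA2 encode the main proteins of high-density lipoprotein. APOA2 stood at 264 FPKM in HuES53 and 214 FPKM in HuES64, a difference of 0.30. It ranked 349th of all symbols in HuES53 (the top 1.37%) and 512th in HuES64 (the top 2.01%). APOA1 stood at 113 FPKM in HuES53 and 152 FPKM in HuES64, a difference of -0.42. The main apolipoproteins of this particle therefore leaned in opposite directions, with 2.34 APOA2 per APOA1 in HuES53 and 1.41 in HuES64. With the GC and length trend across genes removed, APOA1 was nearly level, at -0.06, and APOA2 stood at 0.32. The coding transcripts of APOA2 are short, with a median of 418.5 bases in the reference annotation.

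AFP, alpha-fetoprotein, is a major plasma protein of the fetus and a classical marker of yolk sac and fetal liver. It stood at 7.25 FPKM in HuES53 and 1.53 FPKM in HuES64. This was the largest difference of the 10, at 1.71, or 4.74-fold as a plain ratio, and 0.609% of tested genes differed by as much in that direction. About 268 fragments in HuES53 and 46 in HuES64 lay behind it, with a counting error of 14.7% for the lower value. ALB, its neighbour on chromosome 4 and the albumin gene of the mature liver (named after its values were seen), stood at 0.0261 FPKM in HuES53 while HuES64 had it listed at 0. TTR, transthyretin, carries thyroid hormone and, with RBP4, retinol. It stood at 4.58 FPKM in HuES53 and 5.60 FPKM in HuES64, a difference of -0.24, on about 58 fragments in HuES53 and 59 in HuES64. AFP thus exceeded TTR in HuES53, at 1.58 per TTR, and was below it in HuES64, at 0.274.

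The order of the markers was the same at the ends and changed in the middle. APOA2, APOA1 and CXCR4 led in both lines, and PRDM1 was last in both. In HuES53 they were followed by GATA4, GATA6, HHEX, AFP, SOX17 and TTR, which lay between 11.5 and 4.58 FPKM. In HuES64 the order was SOX17, GATA4, GATA6, TTR, HHEX and AFP, between 10.6 and 1.53 FPKM. Some neighbours lay close together, such as HHEX at 7.81 FPKM and AFP at 7.25 FPKM in HuES53, and others further apart, such as HHEX at 3.14 FPKM and AFP at 1.53 FPKM in HuES64. With no replicates, none of these steps can be set against a spread.

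Proximal promoter sequence from RefSeq (GRCh38.p14) was at hand for 6 of the 10 markers, taking the most upstream start where several were listed. The number of CpG dinucleotides in the 250 bases before the start was higher in the receptor and transcription factor genes than in the genes of secreted proteins. HHEX had 38, CXCR4 24, GATA6 16 and PRDM1 11, against a median of 11 over 35097 promoters. AFP had 1 and APOA2 had 0, numbers that 14.7% and 6.06% of promoters do not exceed. The 100 bases before the start are shown for the 3 markers with a large difference and, for contrast, for the abundant and nearly level APOA2, written 5′ to 3′ on the strand of the gene. Capitals mark TATAAA, the core of a TATA box, where it occurs.
AFP (chr4:73436121-73436220, plus strand): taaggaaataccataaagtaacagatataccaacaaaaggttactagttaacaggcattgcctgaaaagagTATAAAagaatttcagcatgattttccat
CXCR4 (chr2:136118150-136118249, minus strand): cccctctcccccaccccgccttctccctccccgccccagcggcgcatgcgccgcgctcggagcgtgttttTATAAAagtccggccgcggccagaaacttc
HHEX (chr10:92689855-92689954, plus strand): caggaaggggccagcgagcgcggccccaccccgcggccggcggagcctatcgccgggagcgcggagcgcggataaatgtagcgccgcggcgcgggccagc
APOA2 (chr1:161223629-161223728, minus strand): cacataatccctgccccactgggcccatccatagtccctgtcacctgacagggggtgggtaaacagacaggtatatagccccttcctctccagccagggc

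TATAAA was searched on both strands of the 250 bases. It occurred in AFP and CXCR4 and in 10.7% of all promoters, and was not among the letters of HHEX, GATA6, PRDM1 or APOA2 in this window. The GATA motif, searched as AGATAA and TGATAA on both strands, occurred in none of the 6 and in 14.6% of all promoters. These matches describe the sequence only. The promoters of the genes with large differences thus had no common base composition, since AFP is poor in CpG and HHEX and CXCR4 are rich in it.

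The other genes of definitive endoderm and its induction mostly leaned towards HuES53. Of 20 listed, 18 reached a mean of 1 FPKM, 16 of those were higher in HuES53, and the median difference was 0.45. A difference of 2-fold or more towards HuES53 was found for 4, where 2.15% of all tested genes passed, and towards HuES64 for none. The number towards HuES53 was 3 with median of ratios scaling and 7 with TPM scaling, under which 5.29% of all tested genes passed. This list too was chosen with earlier results of these data known. CER1 encodes an extracellular antagonist of Nodal and BMP, and had 543 FPKM in HuES53 against 104 FPKM in HuES64. NODAL, the inducing ligand, had 47.2 FPKM in HuES53 against 21.5 FPKM in HuES64. MIXL1, a homeobox factor of the primitive streak, had 6.84 FPKM in HuES53 against 2.52 FPKM in HuES64. The growth factor gene FGF17 lay just past the mark, with 35.8 FPKM in HuES53 against 17.2 FPKM in HuES64. The activin-binding protein gene FST was nearly level, with 40.8 FPKM in HuES53 against 37.0 FPKM in HuES64. The pioneer factor FOXA2, named after its values were seen, had 11.9 FPKM in HuES53 against 9.26 FPKM in HuES64. The genes past the mark in this list were thus signalling genes and a streak factor, and FOXA2 differed by only 0.33. GSC, also named after its values were seen, fell just short at 0.98, with 10.7 FPKM in HuES53 against 4.90 FPKM in HuES64. Which kinds of gene passed therefore depends on where the mark is set.

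Genes of primitive and parietal endoderm were closer to level. Of 14 tested, 8 were higher in HuES53, the median difference was 0.17, and none differed by 2-fold with the deposited values. The basement membrane collagen gene COL4A1 had 107 FPKM in HuES53 and 76.9 FPKM in HuES64. COL4A2, its partner in the same collagen, had 87.0 FPKM in HuES53 and 78.7 FPKM in HuES64. The matrix protein gene SPARC led the list, with 273 FPKM in HuES53 and 236 FPKM in HuES64. Of the liver and gut tube transcription factors, 5 of 18 reached 1 FPKM and all 5 were slightly higher in HuES53 (5 of 6 with TPM scaling). Their median was 0.21. HNF4A, the main hepatocyte nuclear receptor, had 5.19 FPKM in HuES53 and 3.76 FPKM in HuES64. CEBPB, a leucine zipper factor, had 13.6 FPKM in HuES53 and 12.3 FPKM in HuES64. XBP1, a factor of the secretory pathway, was the most abundant, with 138 FPKM in HuES53 and 128 FPKM in HuES64.

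**Figure D3:**
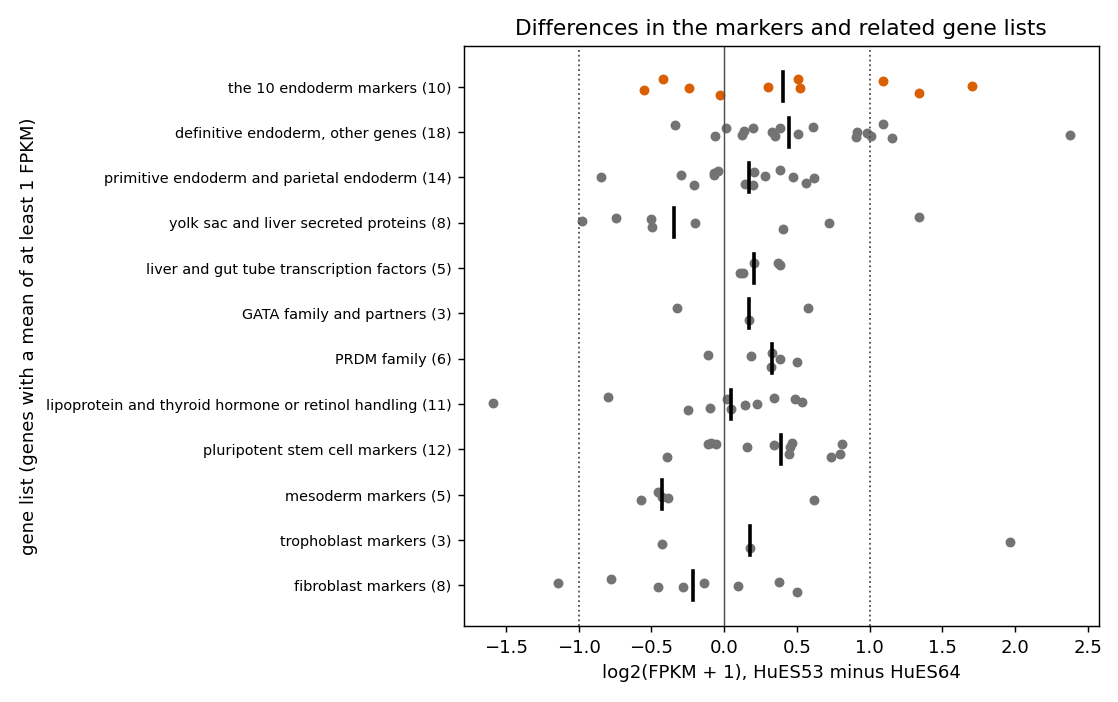
Differences of log2(FPKM + 1), HuES53 minus HuES64, for the 10 markers (orange) and for the tested genes of 11 related lists (grey, number in brackets), with a black bar at each median and dotted lines at 2-fold. The median is 0.41 for the markers, 0.45 for the other definitive endoderm genes and 0.39 for the pluripotency genes. Once the trend with GC content and length is removed these are 0.48, 0.50 and 0.16. The yolk sac and liver list lies at -0.35, or at 0.13 with TPM scaling, where the median of all tested genes is 0.25.

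Genes of other yolk sac and liver proteins that reached a mean of 1 FPKM were mixed in direction. Of 24 listed, 8 reached a mean of 1 FPKM, with 3 higher in HuES53 and 5 higher in HuES64. Their median was -0.35 with the deposited values and -0.11 once the trend with GC content and length was removed. With TPM scaling 11 genes reached a mean of 1, 7 of them were higher in HuES53, and their median was 0.13. That lay below the median of all tested genes under TPM scaling, 0.25. APOE, an apolipoprotein of many tissues, had 724 FPKM in HuES53 and 1023 FPKM in HuES64. APOC1, of the same gene cluster, had 211 FPKM in HuES53 and 415 FPKM in HuES64, just under 2-fold. CYP26A1, the retinoic acid hydroxylase, had 73.7 FPKM in HuES53 and 124 FPKM in HuES64. These abundant genes were higher in HuES64, as was APOA1. APOA4, which lies in a chromosome 11 cluster with APOA1, had 4.29 FPKM in HuES53 and 1.09 FPKM in HuES64, 2.53-fold higher in HuES53 with the added 1 FPKM. With the deposited values APOA1 and APOA4 thus differed in opposite directions. Of the 24 genes, 3 were listed at 0 in HuES53 and 9 in HuES64, and the median level was 0.636 FPKM in HuES53 and 0.194 FPKM in HuES64. Most of the genes below a mean of 1 FPKM were thus higher in HuES53, as AFP was. Their values lie near the floor, and HuES53 was the deeper library by the estimate from low values. The part of depth in these values was not tested.

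No relative of the GATA and PRDM markers differed by 2-fold. Outside GATA4 and GATA6, 3 of 7 genes of the GATA list were tested. GATA3 had 2.30 FPKM in HuES53 and 1.93 FPKM in HuES64. The cofactor gene ZFPM1 had 1.42 FPKM in HuES53 and 2.03 FPKM in HuES64. The partner gene LMO2 had 2.80 FPKM in HuES53 and 1.55 FPKM in HuES64. These levels were all below those of GATA4 and GATA6 in the same library. In the PRDM list 6 of 13 genes were tested and 5 were higher in HuES53 (6 with TPM scaling, 4 with the GC and length trend removed). PRDM14, a regulator of pluripotency, had 54.2 FPKM in HuES53 and 47.6 FPKM in HuES64, far above PRDM1. PRDM4 had 7.30 FPKM in HuES53 and 5.35 FPKM in HuES64. PRDM2 had 5.30 FPKM in HuES53 and 4.01 FPKM in HuES64.

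A further list was drawn up around lipoprotein, retinol and thyroid hormone handling. Its 11 tested genes had a median difference of 0.05. RARRES2, the chemerin gene, was the single large difference, with 92.0 FPKM in HuES53 and 279 FPKM in HuES64. The phospholipid transfer gene PLTP had 84.3 FPKM in HuES53 and 100.3 FPKM in HuES64. SCARB1, a receptor for high-density lipoprotein, had 26.9 FPKM in HuES53 and 28.8 FPKM in HuES64. Apart from RARRES2 no tested gene of the list differed by 2-fold.

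Markers of other lineages were read in the same libraries. In bulk RNA, fewer cells of a type and less RNA per cell cannot be told apart. The 12 neural markers summed to 2.70 FPKM in HuES53 and 2.13 FPKM in HuES64, with 4 listed at 0 in HuES53 and 2 in HuES64. None reached a mean of 1 FPKM. PAX6 was the highest, at 1.19 FPKM in HuES53 and 0.720 FPKM in HuES64, followed by DCX, at 0.686 FPKM in HuES53 and 0.365 FPKM in HuES64. The 13 mesoderm markers summed to 40.2 FPKM in HuES53 and 35.3 FPKM in HuES64, with none listed at 0. Most of that was KDR, with 27.6 FPKM in HuES53 and 17.6 FPKM in HuES64. TCF15 had 4.44 FPKM in HuES53 and 6.44 FPKM in HuES64, and TBX6 had 2.37 FPKM in HuES53 and 3.99 FPKM in HuES64. Of 5 tested mesoderm markers 4 were higher in HuES64.

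The 13 trophoblast markers summed to 12.6 FPKM in HuES53 and 8.77 FPKM in HuES64, with 1 listed at 0 in HuES53 and 6 in HuES64. KRT7 led them, at 6.19 FPKM in HuES53 and 5.35 FPKM in HuES64, and HAND1 had 1.39 FPKM in HuES53 and 2.21 FPKM in HuES64. CGA had 2.90 FPKM in HuES53, while HuES64 had it listed at 0. The 12 fibroblast markers summed to 581 FPKM in HuES53 and 604 FPKM in HuES64, with 1 listed at 0 in HuES53 and 0 in HuES64. Their median level was only 2.81 FPKM in HuES53 and 5.73 FPKM in HuES64, as a few abundant genes carried most of the sum. THY1, which stem cells also express, had 243 FPKM in HuES53 and 227 FPKM in HuES64. COL1A1 had 138 FPKM in HuES53 and 168 FPKM in HuES64, and FBLN1 had 109 FPKM in HuES53 and 121 FPKM in HuES64. COL3A1 was the single fibroblast gene past 2-fold with the deposited values, at 3.08 FPKM in HuES53 and 8.00 FPKM in HuES64, and with TPM scaling none was. The part of other cell types in the differences of the endoderm markers was not tested.

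In the coordinates of the deposited table, whose genome build the labels do not name, CXCR4 lay at chromosome 2, 136871919 to 136875725, HHEX at chromosome 10, 94449681 to 94455408, and AFP at chromosome 4, 74301933 to 74321492. APOA1 lay at chromosome 11, 116706469 to 116708338, APOA2 at chromosome 1, 161192083 to 161193418, and PRDM1 at chromosome 6, 106534195 to 106557814. GATA6 (19749416 to 19782227) and TTR (29171730 to 29178987) shared chromosome 18, and GATA4 (11561717 to 11617509) and SOX17 (55370495 to 55373456) shared chromosome 8. No marker locus overlapped another gene of the table, so none of the 10 values shares fragments with a listed overlapping gene. The closest neighbour was LOC100128893, 486 bases from GATA6, at 3.50 FPKM in HuES53 and 3.25 FPKM in HuES64. That neighbour was nearly level while GATA6 differed by 0.52. Other nearest genes were not level. KIF11, 34528 bases from HHEX, had 27.7 FPKM in HuES53 and 14.8 FPKM in HuES64, in the direction of HHEX. B4GALT6, 23221 bases from TTR, had 16.8 FPKM in HuES53 and 7.80 FPKM in HuES64, against the direction of TTR. KIF11 and B4GALT6 were named after their values were seen.

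The large differences kept their side of the 2-fold mark under each alternative that was run. CXCR4 ranged from 1.13 to 1.59 over 9 alternatives, HHEX from 1.04 to 1.37 over 9, and AFP from 1.48 to 2.17 over the 8 that kept it. The lowest value of each came from removal of the GC and length trend, under which 1.68% of tested genes were at least 2-fold higher in HuES53. GATA4 differed by 0.86 under that alternative and was below 1 in all 9. SOX17, APOA1 and TTR were lower in HuES53 in all 9, although APOA1 narrowed to -0.06 and TTR to -0.04 at the nearest. Changing or dropping the cut on mean FPKM could not move any marker's difference. Nor could the choice of row for a repeated symbol, so these alternatives add nothing to the ranges. The remaining alternatives reworked the same libraries.

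**Figure D4:**
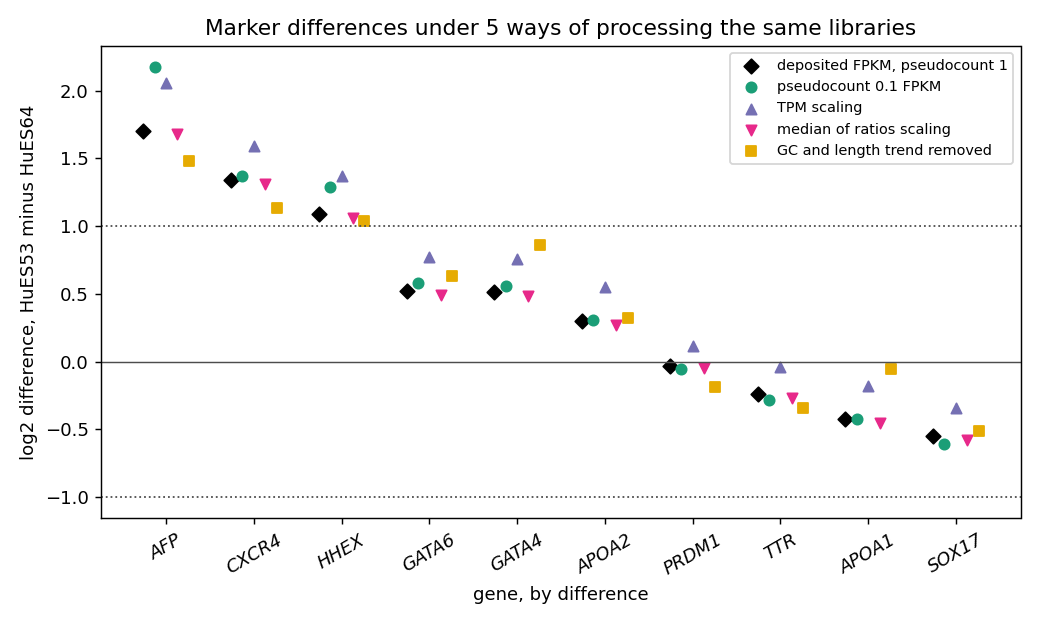
Difference of each marker, HuES53 minus HuES64 on the log2 scale, under 5 ways of processing the same libraries, 1 symbol per way, with dotted lines at 2-fold. AFP, CXCR4 and HHEX stay above the upper line under all 5, and PRDM1 crosses 0 with TPM scaling.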

How the data were processed

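The authors deposited 1 table of FPKM values with 25593 rows and 1 column per line. TopHat2 2.0.4 and Cufflinks 2.0.2 are named, with no role, per the submitters' processing notes. Poly(A) RNA and an Illumina TruSeq kit were used, per the labels' protocols. Not given in the sources used here are the genome build, annotation, strand setting and read filters. The 136 rows of chromosome Y were left out, and rows sharing a symbol (21 symbols) were summed, leaving 25436. Starts are printed counting from 1, since 1259 of 1298 microRNA loci matched their reference length when read as counting from 0.

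Count models were not applied, as FPKM are normalized values. Differences are log2(FPKM + 1) for genes averaging 1 FPKM or more. With 1 library per line, an exact 0 is only described as listed at 0. Depth came from steps of low olfactory receptor values, for an assumed fragment length of 200 bases. At the chosen depth, 18 of 21 in HuES53 and 9 of 12 in HuES64 lay within 3% of a whole number of fragments. The depth was picked to make that share largest, so the share is no separate check. These are best fits, and fragments per gene use the median coding transcript length, so they are approximate. Counting errors cover counting only.

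GC content and length came from GENCODE release 29 transcripts, matched by symbol for 11916 genes (86.4%) and all 10 markers. Medians over 20 bins of each were subtracted in 5 rounds, a step tested on simulated data. The members and the 12 lists were chosen with earlier results of these data known. Genes named from a list are its 3 highest by mean and those at least 2-fold different, and others are marked. A gene that this rule would name is not reported here. Python 3.11.15, pandas 2.3.3, scipy 1.17.1 and matplotlib 3.10.9 were used.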

Additional observations from a re-analysis of the deposited data

How the results depend on the processing

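Every alternative was applied to all genes, and none changed which of the 10 markers were past 2-fold. The cuts on mean FPKM and the choice of row for a repeated symbol could not move a marker's difference. The count past 2-fold was 3 throughout, or 2 of 8 with a mean of at least 5 FPKM, which leaves out AFP and PRDM1. PRDM1 was the single marker that changed direction, to 0.12 with TPM scaling, which also moved the median of all genes to 0.25 from 0.03. The number higher in HuES53 was then 7 of 10. The marker median of 0.41 became 0.43 and 0.42 with pseudocounts of 0.1 and 0.5 FPKM, 0.65 with TPM scaling, 0.39 with upper quartile scaling, 0.38 with median of ratios scaling and 0.48 once the trend with GC content and length was removed. Relative to the median of all genes it was 0.38 with the deposited values and 0.40 with TPM scaling. At 5 FPKM, 8 of 10 markers were detected in HuES53 and 7 in HuES64. Of all 25436 symbols, 9661 had a mean of at least 5 FPKM. With the deposited values, 297 tested genes (2.15%) were past 2-fold towards HuES53 and 235 (1.70%) towards HuES64. For a pseudocount of 0.1 FPKM there were 585 (4.24%) towards HuES53 and 405 (2.94%) towards HuES64. For TPM scaling there were 774 (5.29%) towards HuES53 and 200 (1.37%) towards HuES64. For means from 5 FPKM there were 161 (1.67%) towards HuES53 and 159 (1.65%) towards HuES64. No paired analysis was possible because each line has 1 library. Depth limits PRDM1, TTR and AFP in HuES64 most.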
